A study of Mus musculus with 104 samples.

Results

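The 8 genes described here are Abca1, Abcg1, Apoe, Apoc1, Pltp, Mylip, Lpcat3 and Rnf145, a set of transcriptional targets of the liver X receptors that act in cholesterol efflux and lipid remodelling. They were taken by gene symbol from each of 8 expression tables, and all 8 were found among the 24940 genes that every table lists. RNA-seq had been made from mouse libraries in 47 groups, to follow monocytes that settle in the emptied liver niche and become Kupffer cells, macrophages that reside in the liver, and to test Notch, TGF-beta and LXR signals in that change.

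The groups fell into 5 kinds. Repopulating liver macrophages came from Clec4f-cre/Rosa26iDTR mice, in which diphtheria toxin kills the Kupffer cells, and were taken 12, 24, 48, 72, 168 and 336 h after the toxin. They were set against Ly6C-high blood monocytes of C57BL/6J mice and against Kupffer cells of Clec4f-cre/Rosa26iDTR mice given PBS. Further repopulating macrophages, at 24 h, had received LY411575, a gamma-secretase inhibitor that blocks Notch cleavage, or antibodies to DLL1 and DLL4, each beside its own control. The mice of these 24 h experiments had been fasted, per the file headers, and are labelled C57BL/6J, where the design text names Clec4f-Cre/DTR mice. Kupffer cells of Nr1h3 flox/flox Clec4f-cre+/- mice and of Smad4 flox/flox Clec4f-cre+/- mice, each sorted as TIM4-positive and TIM4-negative, stood beside TIM4-positive cells of mice with the floxed allele and no Cre. Clec4f is itself a Kupffer cell gene, so the Cre acts only once a cell has begun to express it. C57BL/6J cells sorted as STAB2-low, STAB2-intermediate and STAB2-high made up 3 groups. Cultured cells were Nr1h3 knockout and wild-type bone marrow-derived macrophages (BMDMs, 7 days) and Smad4 knockout and control BMDMs (4 days, treated for 24 h). Further cultures were C57BL/6J BMDMs (treated for 24 or 72 h) and bone marrow monocytes (2 days), the latter from male C57BL/6J mice per the headers. Treated cultures had received the Notch ligand DLL4, TGF-beta, the Notch pathway inhibitor DAPT, or the sterols DMHCA and desmosterol, alone or combined. Groups held 2 to 4 libraries. Nothing in the labels ties the libraries of a group to separate mice or cultures. The p-values therefore reflect only how far these libraries spread, which may be technical.

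Liver X receptors are nuclear receptors that sense oxidised cholesterol and some cholesterol precursors and switch on genes that move cholesterol out of the cell. LXR alpha is encoded by Nr1h3, which is abundant in liver and in Kupffer cells, and LXR beta by Nr1h2, which is expressed in most tissues. Both bind DNA as a dimer with the retinoid X receptor, typically at direct repeats of a hexamer. Of the 8 targets, ABCA1 and ABCG1 are transporters that hand cholesterol to lipoprotein particles, apolipoprotein E and apolipoprotein C-I are carried on such particles, and PLTP transfers phospholipids between them. MYLIP, also called IDOL, is a ubiquitin ligase that limits lipoprotein uptake, LPCAT3 builds polyunsaturated phospholipids, and RNF145 is a ubiquitin ligase of the endoplasmic reticulum that limits sterol synthesis.

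Promoter sequences were examined because the 8 genes were chosen as targets of one pair of receptors. RefSeq windows of 300 bases in GRCm38.p6, 250 before to 50 after a transcription start, were found for 6 of the 8 genes, with 10 starts in all, and the table held no entry for Abcg1 or Apoc1. Each was searched on both strands for the direct repeat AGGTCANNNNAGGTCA, in which 12 bases are fixed, with up to 3 mismatches. Of the 10 windows 2 held a match, against 21.9% of 32851 promoters of the same length, and with up to 2 mismatches 0 of the 10 and 3.02% of all promoters did. The matches lay in Abca1, on the strand opposite to the gene with its first base at position -67, and in the third start of Rnf145, on the strand of the gene at position -92, counted from the transcription start. Both windows are printed 5′ to 3′ on the strand of the gene, with the 16 bases of the match in capitals. Abca1 spans chr4:53159846-53160145 on the minus strand, and Rnf145 spans chr11:44520039-44520338 on the plus strand.
Abca1: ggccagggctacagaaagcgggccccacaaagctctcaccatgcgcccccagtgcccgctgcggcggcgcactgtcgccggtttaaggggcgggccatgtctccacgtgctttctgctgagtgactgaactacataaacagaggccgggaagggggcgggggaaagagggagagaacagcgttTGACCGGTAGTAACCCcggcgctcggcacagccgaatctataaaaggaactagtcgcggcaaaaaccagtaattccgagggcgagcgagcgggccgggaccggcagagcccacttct
Rnf145: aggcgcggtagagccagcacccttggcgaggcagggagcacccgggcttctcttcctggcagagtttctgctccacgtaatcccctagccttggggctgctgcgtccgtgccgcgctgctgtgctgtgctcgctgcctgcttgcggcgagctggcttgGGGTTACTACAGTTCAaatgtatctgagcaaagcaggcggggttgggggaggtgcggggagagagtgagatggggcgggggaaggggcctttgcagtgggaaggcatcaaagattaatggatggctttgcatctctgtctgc
A match of this kind is a description of letters and was not tested for receptor binding.

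Whole-series values that bear on the 8 genes were few. Reads recovered from the deposited values ran from 7830287 to 27776774 per library. All 8 genes passed the filter of at least 4 TPM in at least 2 libraries of a table in 6 of the 8 tables. Apoc1 did not pass in the Smad4 BMDM table and in the bone marrow monocyte table, where 7 of 8 members were tested. In the C57BL/6J BMDM table and, for BMDMs, in the Nr1h3 table it passed only through groups in which it is high (72 h cultures with DLL4 and TGF-beta, and Kupffer cells), so in those BMDM comparisons its values are given without a call and counts and medians cover the other 7 members. A difference was called at a Benjamini-Hochberg adjusted p below 0.05 in limma over all genes tested together with a change of at least 2-fold, and every log2 difference below is on the log2(TPM + 1) scale with its standard error. In bulk RNA, fewer cells of a type and less RNA per cell cannot be told apart.

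Kupffer cells carried far more RNA of the efflux genes than blood monocytes. Apoc1, Pltp, Apoe and Abca1 rose by 4.97 to 7.39 on the log2 scale, Mylip and Abcg1 by less, and Lpcat3 and Rnf145 were above the monocytes by under 2-fold. Of the 8 members 6 were called higher and 0 lower, where 35.1% of all genes tested were called in either direction, and the median log2 difference was 3.54 for the members and -0.06 for all genes.

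The lipoprotein genes were the most abundant. Apoe had 15500, 16880 and 14990 TPM in Kupffer cells, against 372.3, 428.4, 383.7 and 534.2 TPM in blood monocytes, a difference of 5.21 ± 0.20 (adjusted p = 1.3e-13). It made up 2.92% of all TPM of a Kupffer cell library on average, with a range of 2.78% to 3.12% (n = 3), and 0.0802% of a monocyte library. Apoc1 had 1838, 1877 and 1858 TPM in Kupffer cells, against 8.84 to 12.4 TPM in monocytes, and rose by 7.39 ± 0.32, the largest difference among the 8. Neither gene overlapped between the groups. Pltp averaged 1662 ± 220 TPM in Kupffer cells (SD, n = 3) and 38.5 ± 11.3 TPM in monocytes (SD, n = 4), a difference of 5.43 ± 0.16 (adjusted p = 3.1e-15).

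The transporters differed from each other in their monocyte level. Abca1 had 181.6, 140.4 and 145.7 TPM in Kupffer cells, against 2.58, 3.04, 6.90 and 4.36 TPM in monocytes (4.97 ± 0.21, adjusted p = 4.3e-13). Abcg1 had 107.1, 91.4 and 90.7 TPM in Kupffer cells, against 42.6, 31.3, 50.2 and 36.7 TPM in monocytes (1.26 ± 0.15, adjusted p = 9.2e-07). Monocytes thus held 41.7% of the Kupffer mean for Abcg1 and 2.71% for Abca1. Mylip rose by 2.11 ± 0.12 (adjusted p = 3.2e-11), to 62.5, 70.1 and 63.2 TPM in Kupffer cells, against 12.4 to 16.8 TPM in monocytes. Lpcat3 was 0.57 ± 0.10 higher (adjusted p = 4.8e-05) and Rnf145 0.68 ± 0.14 higher (adjusted p = 0.00025), both without overlap.

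**Figure D1:**
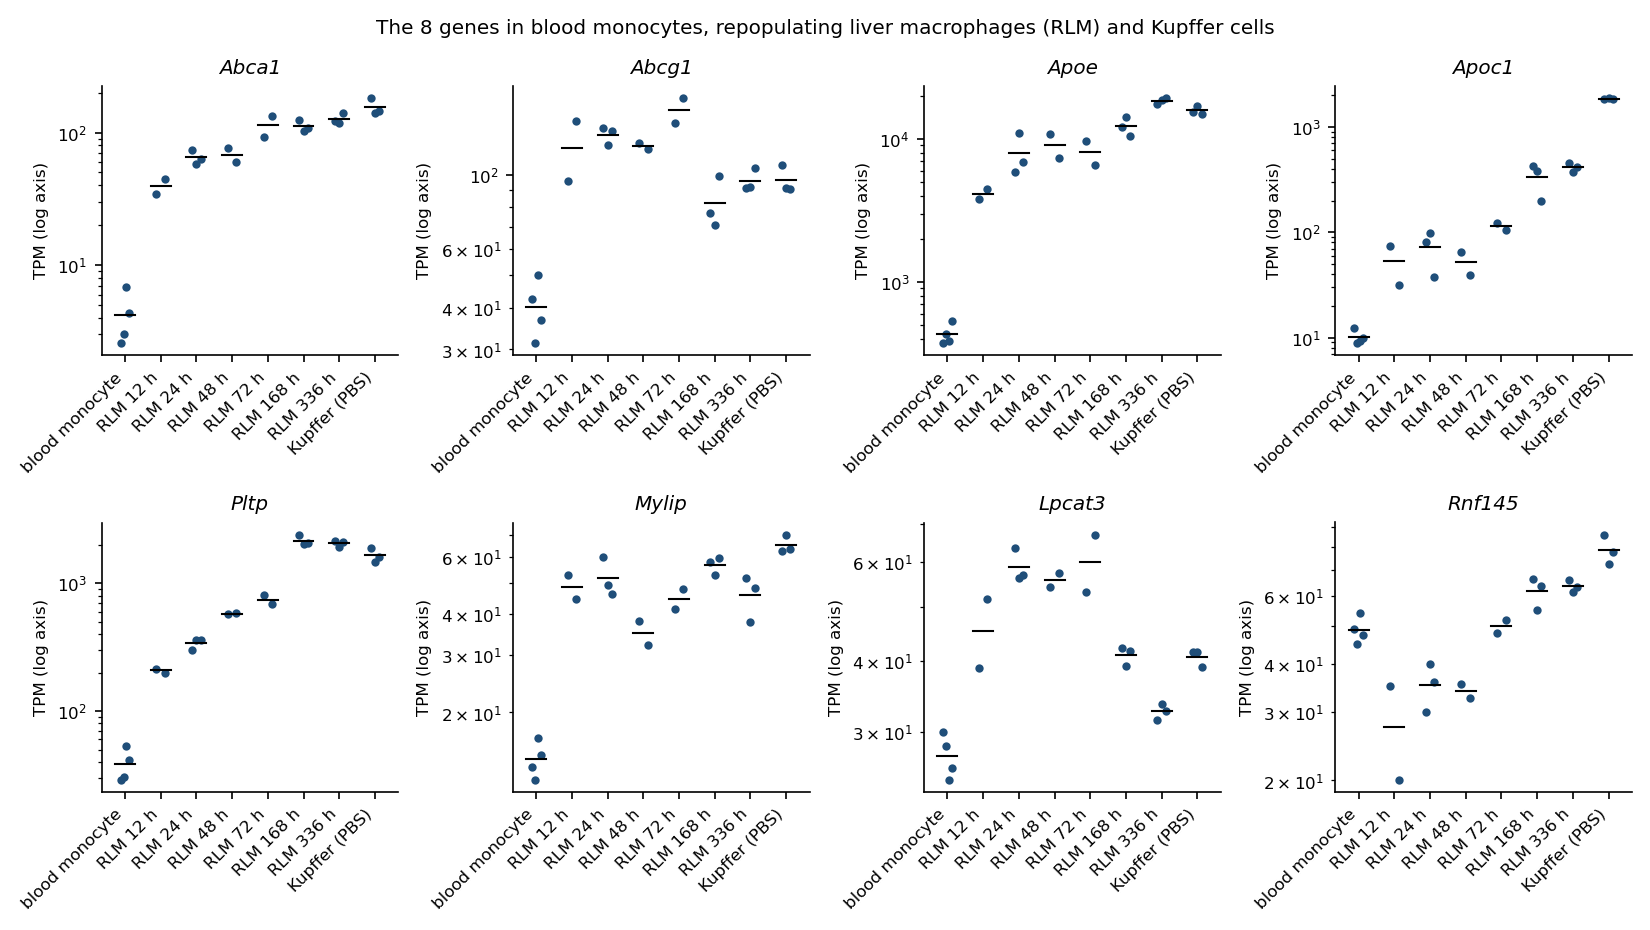
TPM of the 8 genes (log axis) in each library of blood monocytes, repopulating liver macrophages by hours after diphtheria toxin, and Kupffer cells; each point is 1 library and horizontal lines are group means. All members but Rnf145, Apoc1 included, are already above every monocyte library at 12 h. Apoc1 is still at 459.3 TPM or less at 336 h, against about 1858 TPM in Kupffer cells.

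Nr1h3 moved with these genes. It had 203.2 and 299.5 TPM at 12 h and 356.1 to 450.2 TPM in Kupffer cells, against 2.06 to 5.41 TPM in monocytes. Nr1h2 had 70.56 and 79.25 TPM at 12 h, where 1 of the libraries lies within the monocyte range, and 89.46 to 102.7 TPM in Kupffer cells, against 60.68 to 71.74 TPM in monocytes. Markers of other liver cells moved with the same comparison. All 17 of 17 hepatocyte markers and 12 of 12 sinusoidal endothelial markers were called higher in Kupffer cells than in monocytes (background 35.1%). The hepatocyte markers summed to 1862 to 8241 TPM in Kupffer cells, against 200.9 to 218.8 TPM in monocytes, in which 7 of the 17 were at 0 (Apoh, Ttr, Fgb, Fgg, Serpina1c, Cps1 and Rbp4), and the endothelial markers to 912.8 to 929.4 TPM, against 3.98 to 6.16 TPM. Apoe and Apoc1 are also hepatocyte genes. Alb, the albumin gene, had 3123, 2802 and 272 TPM in the 3 Kupffer cell libraries, in which Apoc1 had 1838, 1877 and 1858 TPM, so that Apoc1 was as high in the library with the least Alb. The part of the other markers in these results was not tested.

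The genes were called below Kupffer cells over different spans of time. Abcg1, Mylip and Lpcat3 were not called against Kupffer cells at any of the 6 times. Apoe was called lower at 12 and 24 h, Abca1 and Rnf145 at 12, 24 and 48 h, Pltp at 12 to 72 h, and Apoc1 at all 6 times. The last time called rests on the 2-fold line for several genes. Apoe at 72 h was at -0.99 and was called without 72 h replicate 1 (-1.27) or Kupffer cell replicate 1 (-1.0) or 3 (-1.02), and at 48 h (-0.82) without 48 h replicate 1 (-1.11). With quantile normalization Pltp at 72 h lost its call (-0.91, against -1.15) and Mylip at 48 h gained one (-1.01, against -0.88). Against monocytes, 6 of 8 members were called higher at 12 h (background 25.2% of genes called), 7 at 24 h (33.4%), 7 at 48 h (37.4%), 7 at 72 h (37.1%), 6 at 168 h (29%) and 6 at 336 h (30.8%), and 0 were called lower. The members' medians were 1.93, 2.19, 1.91, 2.66, 3.20 and 3.14 in the order of the times, against medians over all genes between -0.09 and 0.09. These comparisons share the 4 monocyte libraries.

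Apoe was the most rapid in absolute level. It had 3822 and 4437 TPM at 12 h, above every monocyte library (3.27 ± 0.23), and 17600, 18620 and 19210 TPM at 336 h, above the highest Kupffer cell library at 16880 TPM. Its level stood at 26.2% of the Kupffer mean at 12 h, 50.2% at 24 h, 57.6% at 48 h, 51.4% at 72 h, 77.6% at 168 h and 117% at 336 h. Neighbouring times from 24 to 72 h overlapped, and the difference from Kupffer cells at 336 h was 0.23, with a 95% interval of -0.23 to 0.68.

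Pltp climbed from 24 to 72 h, where neighbouring Apoe groups overlapped. It had 215.3 and 200.4 TPM at 12 h, 302.6, 362.1 and 363.1 TPM at 24 h, 572 and 587.8 TPM at 48 h and 807.2 and 684.4 TPM at 72 h. At 168 h it had 2402, 2028 and 2061 TPM, and at 336 h 2136, 1931 and 2126 TPM, all above the highest Kupffer cell library at 1905 TPM. Each group up to 168 h was above the one before it without overlap. Between 168 and 336 h the Pltp groups overlapped. Apoe still rose there without overlap, from between 10480 and 14190 TPM to between 17600 and 19210 TPM. Phospholipid transfer protein RNA was thus at 124% of the Kupffer mean at 336 h, a difference of 0.32 (95% interval -0.04 to 0.68).

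Apoc1 lagged. It had 74.8 and 31.6 TPM at 12 h, 80.7, 97.4 and 37.2 TPM at 24 h, 429.7, 382.9 and 199.2 TPM at 168 h, and 459.3, 375 and 416.3 TPM at 336 h, or 22.4% of the Kupffer mean. The difference from Kupffer cells was -2.53 ± 0.34 at 168 h (adjusted p = 5.4e-05) and -2.16 ± 0.34 at 336 h (adjusted p = 0.00033, 95% interval -2.87 to -1.45). Apoc1 was the only member called at either of these times. At 12 h 5 of 8 members were called lower than in Kupffer cells (background 23.8%), at 24 h 5 (14.7%), at 48 h 4 (18.5%), at 72 h 2 (10.9%), at 168 h 1 (3.99%) and at 336 h 1 (3.82%). The medians of the members were -1.73, -1.09, -1.03, -0.59, -0.29 and -0.30, against medians of all genes between -0.06 and 0.06.

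Alb moved with Apoc1 in some of these libraries and not in others. At 12 h the library with 74.8 TPM of Apoc1 had 912.4 TPM of Alb, and the one with 31.6 TPM had 225.4 TPM. At 24 h Alb had 1003, 805.1 and 212 TPM beside 80.7, 97.4 and 37.2 TPM of Apoc1, at 48 h 127.6 and 142.1 TPM beside 65.7 and 39.2 TPM, and at 72 h 831.8 and 574.5 TPM beside 122.3 and 106.1 TPM. At 168 h Alb had 1711, 708.7 and 401.1 TPM beside 429.7, 382.9 and 199.2 TPM of Apoc1. At every time but 48 h the library with the least Alb thus had the least Apoc1. At 336 h Alb had 863.8, 731.6 and 807.8 TPM, more than in the Kupffer cell library with 272 TPM, while Apoc1 had 375 to 459.3 TPM, against 1858 TPM in that library. The part of hepatocyte RNA in the Apoc1 values was not tested.

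**Figure D2:**
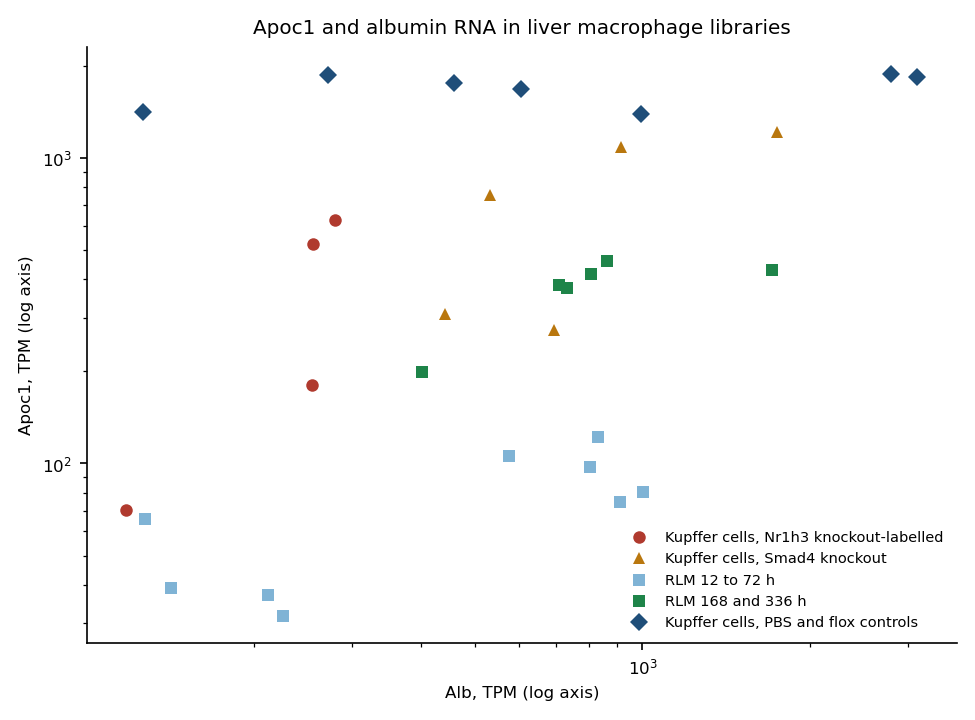
Apoc1 TPM against Alb TPM (both log axes) in each library of repopulating macrophages and Kupffer cells; each point is 1 library. At every time but 48 h the library with the least Alb has the least Apoc1, and the 7 Kupffer cell libraries of control mice hold 1390 TPM of Apoc1 or more with Alb from 126.2 to 3123 TPM.

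Abca1 climbed over days and Abcg1 did not. Abca1 had 34.2 and 44.4 TPM at 12 h, 74.3, 57.8 and 63.1 TPM at 24 h, 93.1 and 134 TPM at 72 h, and 122.6, 118 and 140.4 TPM at 336 h, or 81.5% of the Kupffer mean. Abcg1 stood at 126%, 137%, 127% and 162% of the Kupffer mean at 12, 24, 48 and 72 h and at 85.7% and 99.8% at 168 and 336 h. Its highest group mean was that of 72 h, with libraries at 142.9 and 170 TPM, beside 96.1 to 145.7 TPM at 12 h. The 72 h group was not called against Kupffer cells (0.69) and was not tested against its neighbours in time.

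The remaining members showed small swings. Mylip had 52.6 and 44.5 TPM at 12 h and 38.1 and 32.2 TPM at 48 h, and lay between 53.9% and 86.7% of the Kupffer mean at all 6 times. Lpcat3 rose by 1.09 ± 0.10 at 24 h against monocytes (adjusted p = 2.5e-08), to 63.6, 56.1 and 57 TPM, and was back at 31.5, 33.6 and 32.7 TPM at 336 h, beside 24.7 to 30 TPM in monocytes. Rnf145 had 35 and 20.1 TPM at 12 h, against 45 to 54 TPM in monocytes (-0.86 ± 0.16, adjusted p = 0.00013, under 2-fold), and was called lower than in Kupffer cells at 12, 24 and 48 h. Several of these calls sit at the 2-fold line. Without single libraries the Lpcat3 differences at 48 h fell below it (0.97 without blood monocyte replicate 3 or 48 h replicate 2, 0.99 without blood monocyte replicate 4), as did that at 72 h (0.94 without 72 h replicate 2), that of Abcg1 at 168 h (0.92, 0.99 and 0.89 without blood monocyte replicate 2 or 4 or 168 h replicate 3) and that of Apoe at 24 h against Kupffer cells (-0.86 to -1.0, without 24 h replicate 1 or 3 or Kupffer cell replicate 2), while Rnf145 at 12 h against monocytes was called at -1.24 without 12 h replicate 1.

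Other genes of the pathway were taken from lists that hold no member. Of 24 further LXR targets tested, 12 were higher and 3 lower in Kupffer cells than in monocytes (background 35.1%), with a median of 1.08. At 24 h 14 were higher and 3 lower (background 33.4%, median 1.62), led by Mertk (7.22), a receptor for dying cells, Cd5l (6.15), Nr1h3 itself (5.68) and Tgm2 (5.24). Of 22 genes of cholesterol synthesis and uptake tested, 13 were lower and 0 higher at 24 h (background 33.4%), with a median of -1.12.

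Apoc1 and Pltp fell in Kupffer cells of Nr1h3 flox/flox Clec4f-cre+/- mice, the comparison that tests LXR alpha in the resident macrophage. Abca1, Abcg1, Mylip and Rnf145 were not called there in either direction, and Apoe and Lpcat3 differed by under 2-fold. In TIM4-positive cells 2 of 8 members were called lower (background 2.86% of genes called), and in TIM4-negative cells Apoc1 and Pltp were again (background 4.16%). The medians were 0.02 and -0.06 for the members, against 0.10 and 0.13 for all genes. TPM of Nr1h3 did not differ, with 390.7 and 422.4 TPM in TIM4-positive and 340.7 and 395.3 TPM in TIM4-negative knockout-labelled cells, against 409.2 and 393.1 TPM in controls. A TPM summed over all exons cannot show the loss of some of them, so it checks neither the deletion nor its extent, and the cells are called knockout-labelled here. All controls were TIM4-positive, so genotype and TIM4 class cannot be told apart in the TIM4-negative comparison. The controls also lack Cre, so deletion and Cre cannot be told apart in either comparison.

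Pltp had 752.4 and 803.5 TPM in TIM4-positive and 567.3 and 616.8 TPM in TIM4-negative knockout-labelled cells, against 1697 and 1573 TPM in control Kupffer cells. All 4 knockout-labelled libraries lay below both controls, with differences of -1.07 ± 0.07 (adjusted p = 2.6e-05) and -1.46 ± 0.07 (adjusted p = 3.1e-06). Apoc1 had 521.2 and 625.3 TPM in TIM4-positive and 70.6 and 180.4 TPM in TIM4-negative knockout-labelled cells, against 1761 and 1413 TPM in controls. It differed by -1.46 ± 0.36 (adjusted p = 0.020) and -3.79 ± 0.36 (adjusted p = 0.00013), and between TIM4-negative and TIM4-positive knockout-labelled cells by -2.33 ± 0.36 (adjusted p = 0.015), the single member called there (background 0.597%).

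The Apoc1 calls lean on few libraries. In TIM4-positive cells the adjusted p was 0.093 without control replicate 1 and 0.079 or 0.057 without knockout-labelled replicate 1 or 2, and between the TIM4 classes 0.056 or 0.12 without either TIM4-positive library. Quantile normalization moved Pltp in TIM4-positive cells to -0.89, under 2-fold.

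Apoe was lower by less than 2-fold. It had 12470 and 9654 TPM in TIM4-positive and 9914 and 7653 TPM in TIM4-negative knockout-labelled cells, against 14110 and 15610 TPM in controls (-0.44 ± 0.14, adjusted p = 0.061, and -0.77 ± 0.14, adjusted p = 0.0051). Abca1 had 152.5 and 175.2 TPM in TIM4-positive and 148 and 154.7 TPM in TIM4-negative knockout-labelled cells, against 96.2 and 161.5 TPM in controls, which overlap with them, and its TIM4-positive difference had an interval of -0.06 to 0.83. Abcg1 had 145.7 and 144.6 TPM in TIM4-positive knockout-labelled cells, against 99.5 and 129.4 TPM in controls (0.35, 95% interval 0.07 to 0.64, adjusted p = 0.075). Lpcat3 was higher by 0.31 (adjusted p = 0.0059) and 0.45 (adjusted p = 0.00064), under 2-fold. Mylip and Rnf145 differed by -0.05 (-0.30 to 0.20) and 0.09 (-0.08 to 0.27) in TIM4-positive cells.

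**Figure D3:**
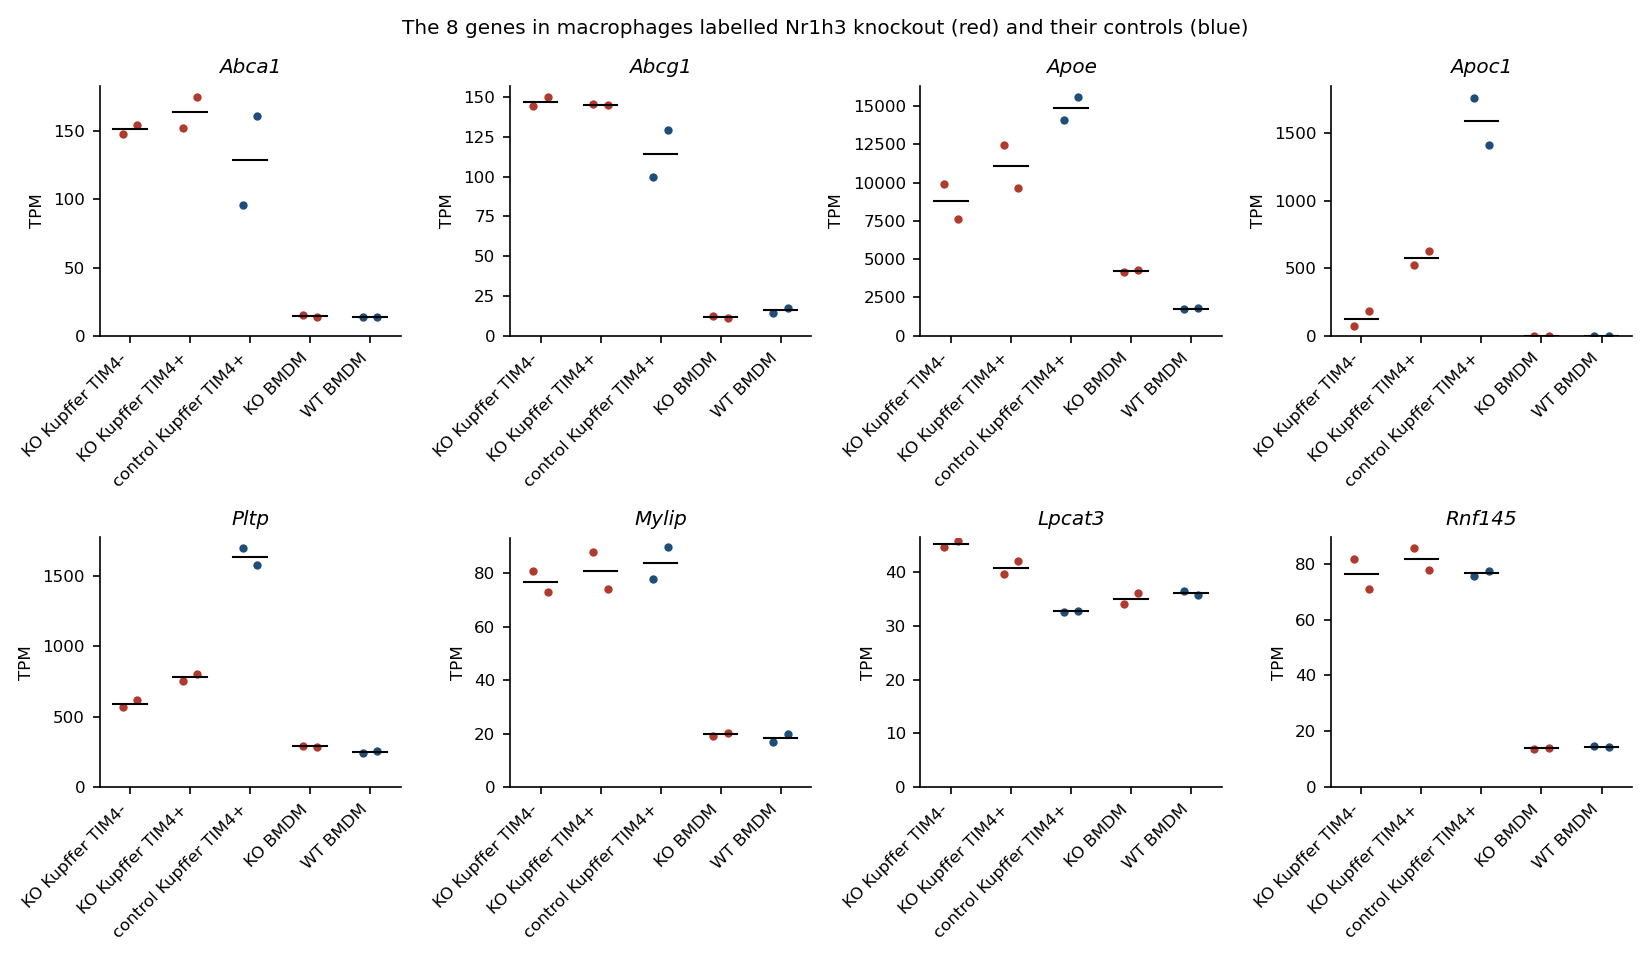
TPM (linear axes from 0) of the 8 genes in knockout-labelled TIM4-negative, knockout-labelled TIM4-positive and control Kupffer cells and in Nr1h3 knockout and wild-type BMDMs; each point is 1 library and horizontal lines are group means. Pltp and Apoc1 are lower in all 4 knockout-labelled Kupffer cell libraries, and Apoe is higher in both knockout BMDM libraries.

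Summed Kupffer cell markers were lower in the same libraries. They came to 7937 to 8620 TPM in TIM4-positive and 5596 to 5690 TPM in TIM4-negative knockout-labelled cells, against 17380 to 17430 TPM in controls. Clec4f among them had 2944 and 2944 TPM, 2562 and 2448 TPM and, in controls, 6243 and 5984 TPM. Kupffer cells given PBS, which carry Clec4f-cre and were handled separately, had 2784 to 3756 TPM of it. The sum also holds Timd4, the gene of the sort marker. Timd4 had 5.84 and 5.22 TPM in TIM4-negative cells, against 531.9 and 556.2 TPM in controls, so those sums are low in part by the sort. Nr1h3 and the LXR target Cd5l are counted in the sum as well. The 17 hepatocyte markers summed to 2206 to 2671, 1612 to 2356 and, in controls, 1471 to 2282 TPM, and the sinusoidal endothelial markers to 543.7 to 570.2, 487.4 to 502.1 and, in controls, 791.1 to 801.5 TPM. Alb had 255.9 and 280 TPM and 117.9 and 254.2 TPM in the knockout-labelled classes, against 457.9 and 126.2 TPM in controls. Their part in the result was not tested. Of the further LXR targets 0 were called higher and 2 lower in each class, Cd5l (-2.76 in TIM4-positive, -4.20 in TIM4-negative cells) and the desaturase gene Scd1 (-2.37 and -3.08).

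BMDMs gave another picture. There the deletion showed in the gene itself, with 8.05 and 8.81 TPM of Nr1h3 in knockout BMDMs, against 41.9 and 43.3 TPM in wild-type BMDMs. Apoe had 4194 and 4282 TPM in knockout BMDMs, against 1772 and 1788 TPM in wild-type BMDMs, and rose by 1.25 ± 0.14 (adjusted p = 0.0055), the single member called of the 7 other than Apoc1 (background 0.417%, median 0.06 against -0.03 for all genes). Its call was lost on leaving out each of the 4 BMDM libraries (adjusted p 0.063 to 0.082) and without an expression filter (0.069), and quantile normalization gave 0.96. Pltp had 292.7 and 288.7 TPM in knockout BMDMs, against 243.8 and 259.4 TPM in wild-type BMDMs. The difference between knockout-labelled TIM4-positive and control Kupffer cells, minus that between knockout and wild-type BMDMs, was tested as an interaction, and 2 of the 7 members other than Apoc1 were called (background 4.1%). It was -1.69 ± 0.20 for Apoe (adjusted p = 0.0013), or -0.96 with quantile normalization, and -1.28 ± 0.09 for Pltp (adjusted p = 0.00014). The Kupffer cells were floxed, with or without Clec4f-cre, and came from liver, while the BMDMs were knockout or wild-type cultures. Cell type, kind of deletion, kind of control and culture thus cannot be told apart in this interaction. Apoc1 was near 0 in all 4 BMDM libraries, at 0.908 TPM at most. Between control Kupffer cells and wild-type BMDMs 6 of the 7 were called higher (background 36.5%, median 2.69), and Apoc1 had 1761 and 1413 TPM, against 0.426 and 0.136 TPM. Lpcat3 was the exception, at -0.14 ± 0.06.

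Smad4 deletion in Kupffer cells left most of the genes within 2-fold. In TIM4-positive Smad4 flox/flox Clec4f-cre+/- cells 0 of 8 members were called by limma (background 0.965%), with 3 at an unadjusted p below 0.05 and 0 on recovered reads with limma-voom. In TIM4-negative cells 1 was, Apoc1 (background 1.62%). Smad4 itself had 13.7 to 21.5 TPM in the 5 knockout libraries, against 33.4 to 35.7 TPM in controls. Apoc1 had 272.8 and 307.5 TPM in TIM4-negative and 1081, 1217 and 754.5 TPM in TIM4-positive knockout cells, against 1390 and 1680 TPM in controls. The differences were -2.40 ± 0.24 (adjusted p = 0.0094) and -0.61 ± 0.21 (adjusted p = 0.27), and the TIM4-negative call was lost without control replicate 1 or 2 (adjusted p 0.057 and 0.10) or TIM4-negative replicate 1 (0.061). TIM4-negative minus TIM4-positive knockout cells gave -1.78 ± 0.21 for Apoc1 (adjusted p = 0.074). No member was called there (background 0.0503%), with 1 at an unadjusted p below 0.05 and 0 with limma-voom, but Apoc1 was called without TIM4-positive replicate 3 (adjusted p = 0.039) and after quantile normalization (0.040). Abca1 and Pltp differed by -0.15 (-0.55 to 0.26) and -0.22 (-0.54 to 0.11) in TIM4-positive cells. Alb had 694.1 and 441.7 TPM in TIM4-negative and 915.5, 1746 and 531.2 TPM in TIM4-positive knockout cells, against 992.2 and 605.1 TPM in controls. The medians were -0.24 and -0.29 for the members in TIM4-positive and TIM4-negative cells, against 0.03 and 0.04 for all genes.

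Kupffer cell identity genes were lower in the same Smad4 knockout libraries. Clec4f, a Kupffer cell lectin whose promoter also drives the Cre, had 766.1 and 881.7 TPM in TIM4-negative and 1435, 1908 and 1579 TPM in TIM4-positive knockout cells, against 6347 and 6201 TPM in controls. Nr1h3 had 154.8 and 187.9 TPM in TIM4-negative and 203.2, 261.1 and 229.7 TPM in TIM4-positive knockout cells, against 358.1 and 390.8 TPM in controls. Kupffer cell markers summed to 3882 to 5783 TPM in TIM4-negative and 8003 to 11010 TPM in TIM4-positive knockout cells, against 15940 to 16400 TPM in controls. No knockout library reached a control in any of these. The summed markers include Clec4f, Nr1h3 and Timd4, the gene of the sort marker. The sums of TIM4-negative cells are thus low in part by the sort. Their part in the result was not tested, and since all controls were TIM4-positive, genotype and TIM4 class cannot be told apart in the TIM4-negative comparison. The controls also lack Cre, so deletion and Cre cannot be told apart in either class. Kupffer cells given PBS, which carry Clec4f-cre and were handled separately, had 2784, 3484 and 3756 TPM of Clec4f.

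Among cells sorted on STAB2, a scavenger receptor of sinusoidal endothelium, the STAB2-high and STAB2-intermediate groups held the highest Mylip of the whole series. Mylip had 210.5 and 174.4 TPM in STAB2-low cells and 409.4 and 380.9 TPM in STAB2-intermediate cells, against 475.8 and 472 TPM in STAB2-high cells (-1.30 ± 0.11 for STAB2-low, adjusted p = 0.00045). Kupffer cells of all kinds had 56.5 to 91.5 TPM, in tables handled separately. Pltp went the other way, with 89.8 and 98.9 TPM in STAB2-low cells, against 11.5 and 13.5 TPM in STAB2-high cells (2.82 ± 0.12, adjusted p = 7e-05). Abca1 had 66.9 and 43.5 TPM in STAB2-low cells, against 23.6 and 15.3 TPM in STAB2-high cells (1.46 ± 0.26, adjusted p = 0.0077). Apoe had 659.8 and 651.7 TPM, against 1384 and 1411 TPM (-1.09 ± 0.11, adjusted p = 0.00071). So 2 members were called higher and 2 lower in STAB2-low cells (background 13.6%, median -0.06 against 0.08 for all genes). Between STAB2-intermediate and STAB2-high cells limma called 0 of 8 (background 0.00946%), with 2 at an unadjusted p below 0.05 and 0 on recovered reads. The 12 sinusoidal endothelial markers summed to 7350 to 8332 TPM in STAB2-low cells, against 15500 to 16810 TPM in STAB2-high cells, and the 6 macrophage markers to 50.9 to 55.4 TPM, against 49.1 to 72.5 TPM. STAB2-low libraries also carry another library code than the rest, which cannot be told apart from the sort.

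**Figure D4:**
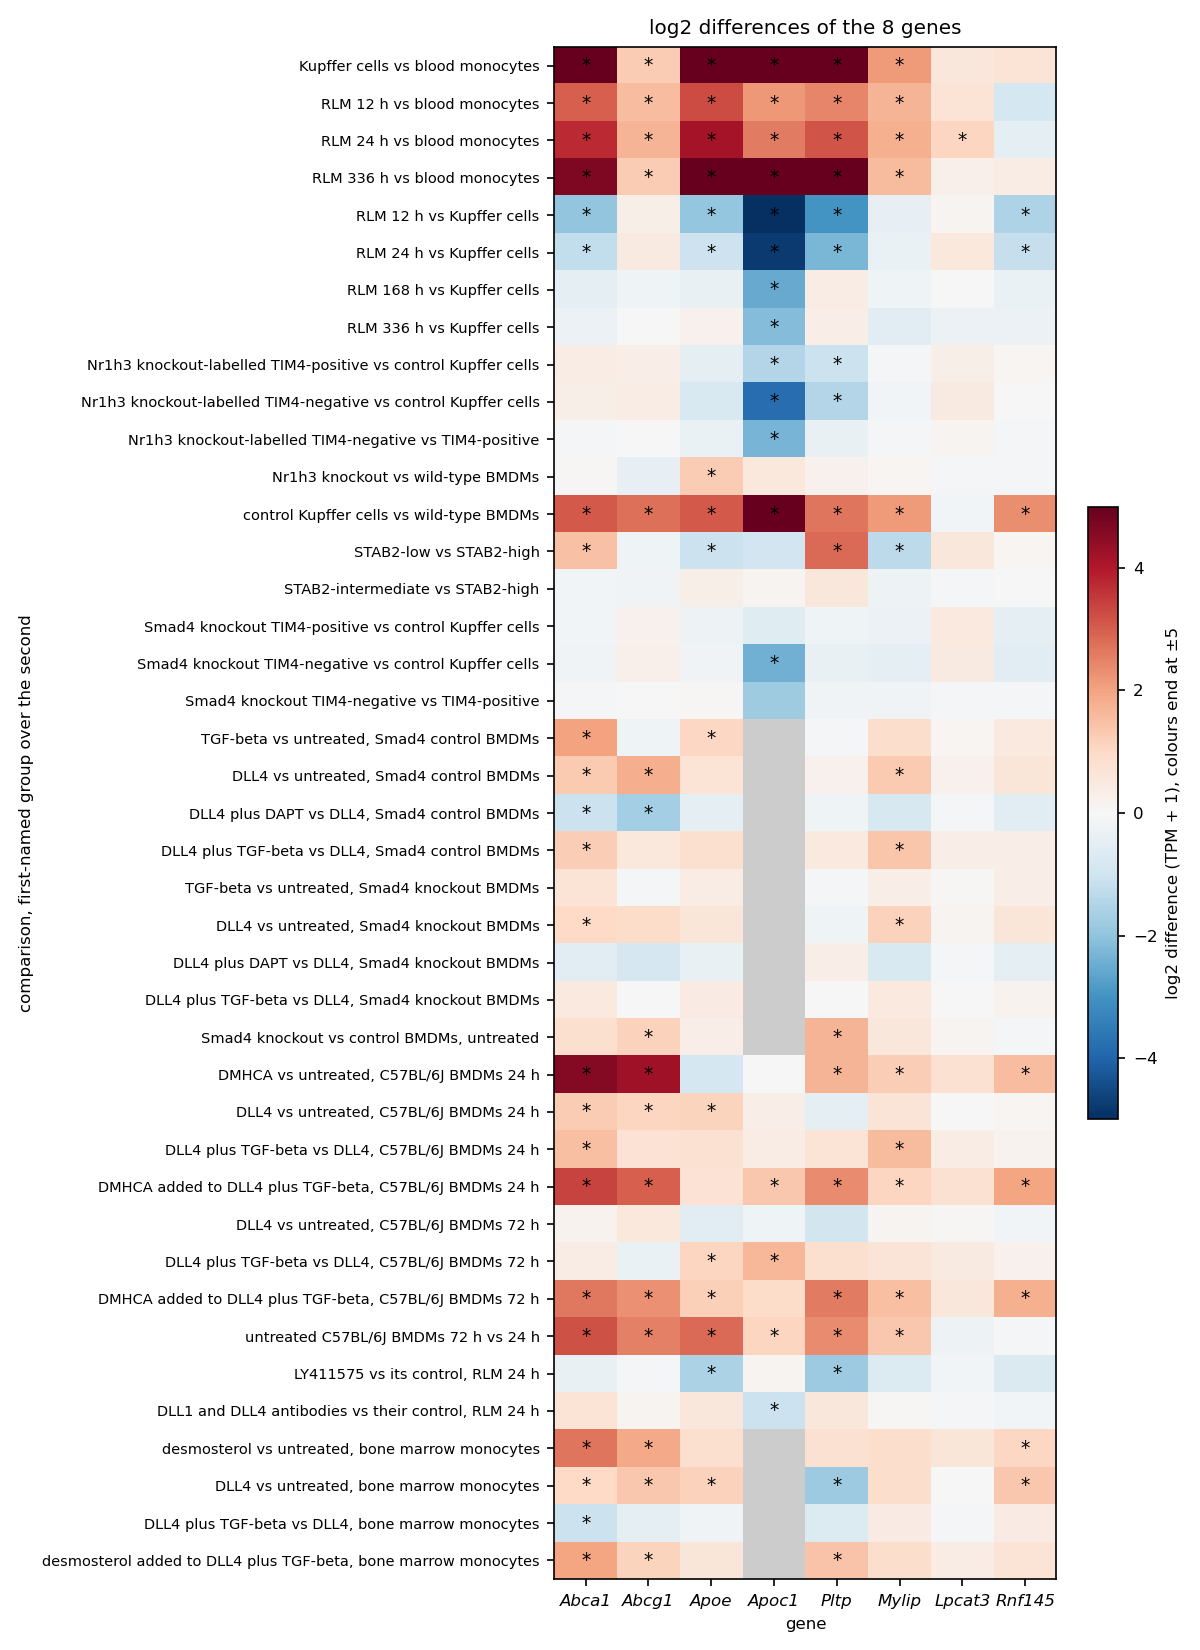
Log2 difference (TPM + 1) of each member in 41 comparisons, first-named group over the second; colour is the difference, grey means not tested, and an asterisk marks a called difference; asterisks of Apoc1 in C57BL/6J BMDMs and against Nr1h3 table BMDMs rest on a filter it passed only through its high groups. Abca1 and Abcg1 rise together with sterols, and Apoc1 and Pltp are the called members in Nr1h3 knockout-labelled Kupffer cells.

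Notch and TGF-beta signals were tested in BMDMs that carry or lack Smad4, the shared partner of the receptor-activated SMADs. In control BMDMs DLL4 raised Abca1, Abcg1 and Mylip, TGF-beta raised Abca1 and Apoe, and the combination raised 4 of 7 members. Under TGF-beta 2 of 7 were called higher (background 4.17%, median 0.48 against -0.05 for all genes), under DLL4 3 (4.06%, median 0.70 against -0.03), and under DLL4 plus TGF-beta 4 (17%, median 1.49 against -0.11). These share the untreated libraries.

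Abca1 had 63.8 and 81.5 TPM under DLL4 plus TGF-beta, 37.8 and 66.4 TPM under TGF-beta and 29.2 and 31.6 TPM under DLL4, against 12.4 and 11.1 TPM in untreated control BMDMs. Every treated library was above both untreated ones, by 2.53, 2.01 ± 0.18 and 1.30 ± 0.18 on the log2 scale. With DAPT it had 14.1 and 14.1 TPM, against 29.2 and 31.6 TPM with DLL4 alone (-1.06), and Abcg1 had 10.5 and 12 TPM, against 35.9 and 40.2 TPM (-1.68). With DAPT 2 of 7 members were called lower than with DLL4 alone (background 2.09%). Nr1h3 itself rose by 2.56 with DLL4 and differed by -1.96 with DAPT.

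Mylip had 116.6 and 122.7 TPM with DLL4 plus TGF-beta, against 42.6 and 48.7 TPM with DLL4 alone and 19 and 16.4 TPM untreated. The step from DLL4 to the combination was 1.37, and that of Abca1 1.22, the 2 members called of 7 (background 6.66%). Apoe had 6389 and 11340 TPM under TGF-beta, against 4313 and 3951 TPM untreated (1.04 ± 0.17, adjusted p = 0.00026). The 2 TGF-beta libraries differ widely, and the Apoe call was lost without TGF-beta replicate 2 (0.63) or untreated replicate 2 (0.98) and after quantile normalization (0.30). Mylip under TGF-beta was called without TGF-beta replicate 1 (1.17), and Apoe under the combination fell to 0.82 after quantile normalization.

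Without Smad4 the TGF-beta response of Abca1 was smaller. Abca1 had 35.2 and 35 TPM with TGF-beta, against 22.1 and 20.54 TPM in untreated Smad4 knockout BMDMs (0.70, adjusted p = 0.031, under 2-fold). The knockout response minus the control response was -1.31 ± 0.25 (adjusted p = 0.0044), the single member called of 7 (background 1.2%), and -0.91, under 2-fold, without control TGF-beta replicate 2. Without control TGF-beta replicate 1 the same difference of responses was called for Apoe (-1.09). Among knockout BMDMs 0 of 7 members were called under TGF-beta (background 0.545%), 0 for TGF-beta on top of DLL4 (background 0.799%) and 0 for DAPT (background 1.82%), in limma and on recovered reads alike, with 3, 4 and 5 at an unadjusted p below 0.05. The response to TGF-beta on top of DLL4 differed between genotypes by -0.90 ± 0.18 for Mylip (adjusted p = 0.0039), under 2-fold, so that no member was called there (background 2.23%, 4 at an unadjusted p below 0.05 and 0 on recovered reads).

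DLL4 acted in both genotypes. Abca1 had 44.5 and 43.6 TPM with DLL4, against 22.1 and 20.54 TPM untreated in Smad4 knockout BMDMs (1.01), and Mylip rose by 1.15, the 2 members called of 7 (background 3.39%). The Abca1 call sits at the 2-fold line and was lost without untreated replicate 2 (0.96) or DLL4 replicate 1 (1.00). With DLL4 plus TGF-beta 3 of 7 were called higher in knockout BMDMs (background 7.24%, median 0.91 against -0.07), and the one of Apoe was 0.99 without DLL4 plus TGF-beta replicate 2. Before any treatment Pltp had 265.5 and 259.5 TPM in Smad4 knockout BMDMs, against 85.7 and 74.3 TPM in control BMDMs (1.71 ± 0.13, adjusted p = 1.2e-06). Abcg1 had 24.4 and 22.1 TPM, against 12.4 and 8.09 TPM (1.14 ± 0.26, adjusted p = 0.0075), and lost its call without control replicate 2 (0.86) or knockout replicate 1 (adjusted p = 0.062). These 2 of 7 were called (background 1.13%). Smad4 differed by -1.22 on the log2 scale in the knockout BMDMs. The driver of the deletion is uncertain, since Clec4f-cre stands in the labels of these BMDMs and LysM-cre in the design text.

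The sterol DMHCA, a synthetic LXR ligand, raised both transporters in C57BL/6J BMDMs. At 24 h it raised Abca1 and Abcg1 by over 4 on the log2 scale, and Pltp, Mylip and Rnf145 by less, while Apoe was lower by under 2-fold. Of the 7 members other than Apoc1 5 were called higher and 0 lower (background 5.43%, median 1.54 against 0.08 for all genes). Apoc1 was at 0 TPM in the 4 libraries compared here.

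Abca1 had 112 and 119.9 TPM with DMHCA, against 4.04 and 3.67 TPM untreated (4.59 ± 0.11, adjusted p = 6.3e-12). Abcg1 had 221.5 and 233.5 TPM with DMHCA, against 11.1 and 11.1 TPM untreated (4.23 ± 0.05, adjusted p = 7.8e-15). Apoe had 645.6 and 626.5 TPM with DMHCA, against 1106 and 1209 TPM untreated (-0.86 ± 0.06, adjusted p = 9.4e-08). The transporters stood apart upwards and Apoe stood apart downwards, each without overlap. Pltp had 139.4 and 136.8 TPM, against 42.2 and 42.3 TPM (1.69), Rnf145 65.3 and 68.9 TPM, against 23.6 and 21.3 TPM (1.54), and Mylip rose by 1.22. The DMHCA libraries had 8303096 and 7830287 recovered reads, against 13305923 and 18633477 in the untreated ones. Summed markers of macrophages and of other cells were lower with DMHCA, and single macrophage markers were not examined here. Macrophage markers summed to 12640 to 13160 TPM with DMHCA, against 25560 to 28290 TPM untreated, neutrophil markers to 293.2 to 307 TPM, against 2004 to 2541 TPM, and monocyte markers to 57.6 to 62 TPM, against 416 to 431.2 TPM. Their part in the result was not tested.

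DMHCA on top of DLL4 and TGF-beta raised many of the same genes. Of the 7 members other than Apoc1 5 were called higher at 24 h (background 1.23%, median 1.96 against 0.02) and 6 at 72 h (background 5.21%, median 1.76 against -0.06). At 24 h Abca1 had 347.1 and 325.4 TPM with DMHCA, against 33.2 and 30.5 TPM with DLL4 and TGF-beta alone (3.36 ± 0.11, adjusted p = 3.5e-10), Abcg1 was 2.99 higher and Pltp 2.37 higher. At 72 h Apoe had 28550 and 26140 TPM with DMHCA, against 11910 and 11720 TPM without it (1.21), the highest Apoe level of all 47 groups. Abca1 at 72 h had 458.3 and 328.7 TPM, against 59.6 and 64.4 TPM (2.63), and Pltp 1233 and 1263 TPM, against 214.7 and 201.4 TPM (2.58). Apoc1 had 2.99 and 3.35 TPM at 24 h with DMHCA, against 0.317 and 1.08 TPM without it, and 11.2 and 8.08 TPM at 72 h, against 4.37 and 4.77 TPM. It thus stayed under 12 TPM in the group with the most Apoe. In the 72 h libraries neutrophil markers summed to 2191 to 2383 TPM with DMHCA, against 7423 to 7442 TPM without it, and their part in the result was not tested.

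**Figure D5:**
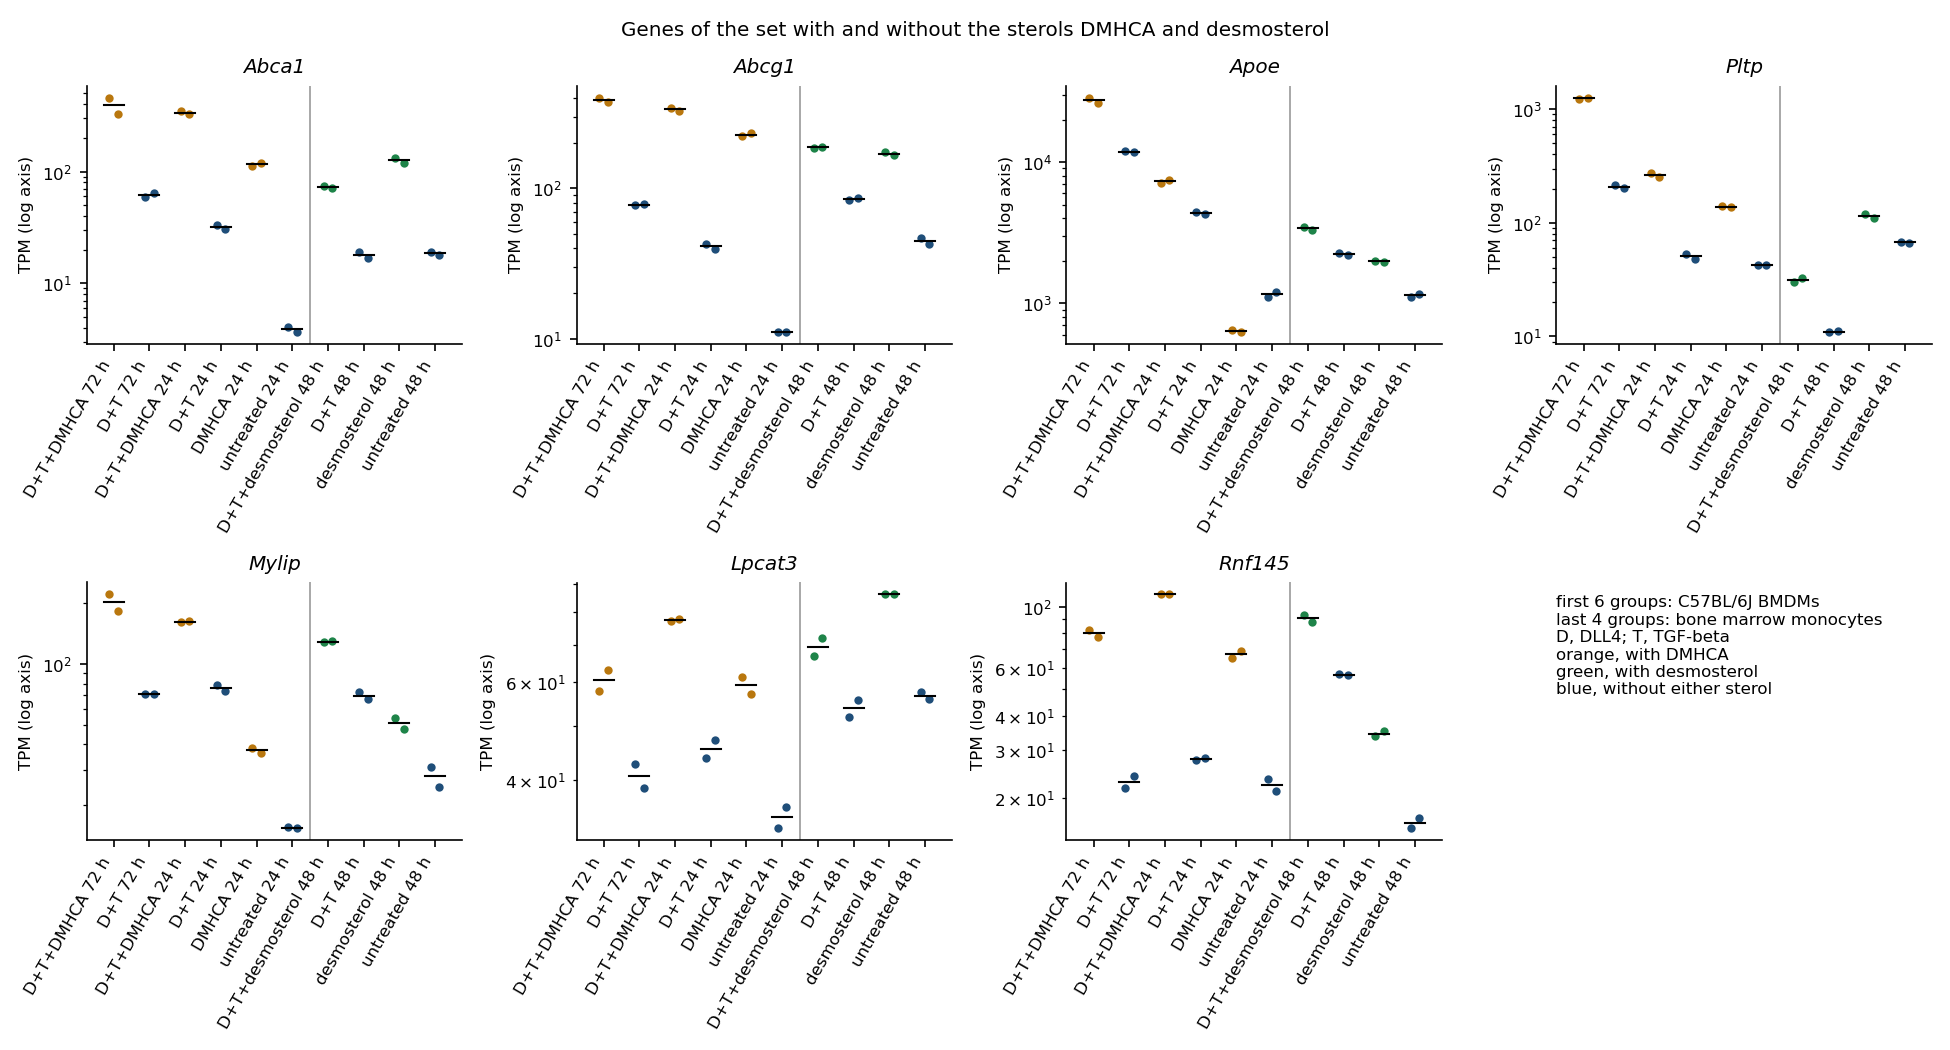
TPM (log axis) of the members other than Apoc1 in C57BL/6J BMDMs at 24 and 72 h and in bone marrow monocytes, with and without DMHCA or desmosterol; each point is 1 library and horizontal lines are group means. Abca1 and Abcg1 are higher in every sterol library than in its partner group, and Apoe is lower with DMHCA alone at 24 h.

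The setting changed the size of the DMHCA response. DMHCA on DLL4 plus TGF-beta minus DMHCA alone at 24 h was tested as an interaction, which called 1 of the 7 members other than Apoc1 higher and 2 lower (background 6.55%). The response was smaller for Abca1 (-1.23 ± 0.16) and Abcg1 (-1.25 ± 0.07), and larger for Apoe (1.60 ± 0.08). Starting means were higher with DLL4 and TGF-beta than untreated for Abca1 (31.8 against 3.85 TPM) and Abcg1 (41.2 against 11.1 TPM). That of Apoe was higher too (4354 against 1158 TPM), and the part of the starting level was not tested. Between 72 and 24 h on DLL4 plus TGF-beta 0 of 7 were called (background 3.47%, 5 at an unadjusted p below 0.05, 0 on recovered reads).

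The genes also differed between untreated cultures of different age. Untreated BMDMs at 72 h had 43.7 and 42.4 TPM of Abca1 and 8597 and 8102 TPM of Apoe, against 4.04 and 3.67 TPM and 1106 and 1209 TPM at 24 h, differences of 3.18 and 2.85. Of the 7 members other than Apoc1 5 were called higher (background 13.8%, median 2.38 against -0.21 for all genes, which quantile normalization raised by 0.18). The 72 h cultures were also 6-day cultures, against 4-day cultures at 24 h, so in treated cells time under treatment and culture age cannot be told apart. In untreated cells culture age and any difference in handling between the times cannot be told apart. At 24 h DLL4 raised Abca1, Abcg1 and Apoe (1.27, 1.07 and 1.13), 3 of 7 members (background 2.75%, median 0.66 against 0.004), and TGF-beta on top of it raised Abca1 (1.49) and Mylip (1.57), 2 of 7 (background 3.8%). At 72 h limma called 0 of 7 under DLL4 (background 1.73%, 3 at an unadjusted p below 0.05, 0 on recovered reads), with Pltp at 118.2 and 120.7 TPM, against 222.6 and 226.8 TPM untreated (-0.91, under 2-fold). TGF-beta on top of DLL4 at 72 h raised Apoe (1.06), 1 of 7 (background 5.65%).

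Desmosterol, the last precursor in one branch of cholesterol synthesis and a natural LXR ligand, was tested in bone marrow monocytes cultured for 2 days. Abca1 had 132.4 and 119.7 TPM with desmosterol, against 19.2 and 18.1 TPM untreated (2.69 ± 0.07, adjusted p = 9.4e-08). Abcg1 had 173.3 and 167.3 TPM, against 47.1 and 42.6 TPM (1.90 ± 0.05, adjusted p = 9.4e-08). Rnf145 was 1.04 ± 0.06 higher, or 0.99 without untreated replicate 1, and Mylip at 0.86 was called without that library (1.02). Of 7 members 3 were called higher where 0.244% of all genes were called in either direction, and the members' median was 0.86, against -0.04 for all genes. Apoe (0.80), Pltp (0.76) and Lpcat3 (0.60) were higher by under 2-fold.

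On top of DLL4 and TGF-beta desmosterol raised Abca1 to 74.7 and 70.5 TPM, against 18.9 and 16.9 TPM without it (1.96), Abcg1 by 1.13 and Pltp to 30.1 and 32.8 TPM, against 11 and 11.1 TPM (1.43). These 3 of 7 were called where 0.205% of all genes were, with a median of 0.89, against -0.05. The responses with and without DLL4 and TGF-beta differed by -0.73 for Abca1 (adjusted p = 0.0088) and -0.77 for Abcg1 (adjusted p = 0.0013), both under 2-fold, so that 0 of 7 were called (background 0.166%, 5 at an unadjusted p below 0.05, 0 on recovered reads). Doses, times and cells differ from those of the DMHCA cultures, and the compounds are not compared here.

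DLL4 by itself split the genes of these monocytes. It raised Abca1, Abcg1, Apoe and Rnf145 (1.00, 1.34, 1.14 and 1.34) and lowered Pltp, which had 14.6 and 23 TPM with DLL4, against 67.8 and 66.5 TPM untreated (-1.82 ± 0.16). Of 7 members 4 were called higher and 1 lower (background 19.5%, median 1.00 against -0.05). The Abca1 call was lost without untreated replicate 2 or DLL4 replicate 2 (0.96 each). TGF-beta on top of DLL4 lowered Abca1, which had 18.9 and 16.9 TPM, against 37.2 and 39.4 TPM with DLL4 (-1.06), 1 of 7 members (background 8.81%, median -0.17 against -0.10), and the difference was -0.98 without DLL4 plus TGF-beta replicate 2 and -0.95 after quantile normalization. In C57BL/6J BMDMs at 24 h the same addition had raised Abca1.

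Other genes under the sterols followed lists that hold no member. With DMHCA alone 8 of 23 further LXR targets rose and 3 fell (background 5.43%). Those that rose were led by Scd1 (4.66), Scd2 (4.33), Fads2 (2.43) and Fasn (1.97), all genes of fatty acid synthesis. With desmosterol alone Scd1 (2.78) and Scd2 (1.78) were the 2 called (background 0.244%). Of 24 genes of cholesterol synthesis and uptake tested, 8 were lower and 0 higher with DMHCA on DLL4 plus TGF-beta at 24 h (background 1.23%, median -0.92). Sqle (-1.87), Cyp51 (-1.62) and Msmo1 (-1.42) were among those lower. With DMHCA alone 0 of the genes of cholesterol synthesis and uptake were called in limma (background 5.43%, median -0.05).

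Blocking Notch cleavage and blocking Notch ligands gave different results in repopulating macrophages at 24 h. LY411575 lowered Apoe and Pltp, and the antibodies to DLL1 and DLL4 did not. With LY411575 2 of 8 members were called lower (background 6.38%, median -0.54 against -0.03 for all genes). With the antibodies 1 was, Apoc1 (background 2.07%, median 0.10 against -0.01).

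Apoe had 1245, 1261 and 1260 TPM with LY411575, against 3919 and 3544 TPM in its controls (-1.57 ± 0.10, adjusted p = 8.2e-07). Pltp had 94.1, 100.5 and 96.9 TPM with LY411575, against 340.8 and 350.8 TPM (-1.82 ± 0.08, adjusted p = 5.5e-08). Neither overlapped. Mylip (-0.68) and Rnf145 (-0.72) were lower by under 2-fold, and Abcg1 differed by -0.04, with an interval of -0.20 to 0.13. Monocyte markers summed to 3733 to 3982 TPM with LY411575, against 2431 to 2506 TPM, and hepatocyte markers to 1124 to 1148 TPM, against 728.8 to 729.5 TPM. Macrophage markers summed to 16010 to 16870 TPM, against 8039 to 8131 TPM, but not every marker rose. Csf1r had 949.5, 924.4 and 885 TPM with LY411575, against 1281 and 1300 TPM. Adgre1 values overlapped, at 313.9 to 336.7 TPM, against 311 and 320.3 TPM. The part of these markers in the result was not tested.

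With the antibodies Apoe had 10880, 9157, 10160 and 8065 TPM, against 6276 and 6458 TPM in their controls (0.58, under 2-fold), and Abca1 107.6, 122.9, 112.1 and 108.3 TPM, against 75.6 and 62.5 TPM (0.70, under 2-fold). Pltp had 374.2 to 445.4 TPM with the antibodies, against 266.4 and 286.2 TPM in the controls, without overlap, and was not called. Apoc1 had 49.4, 51, 57.1 and 104.8 TPM, against 176 and 100.8 TPM (-1.08 ± 0.29, adjusted p = 0.032). The groups overlap, since the highest antibody library lies above the lower control. Without control replicate 1 the difference was -0.68 (adjusted p = 0.23), without antibody replicate 1, 2 or 3 the adjusted p was 0.070, 0.069 and 0.076, and without an expression filter 0.075. Alb had 287.2, 658.5, 295.9 and 1028 TPM with the antibodies, against 2491 and 1055 TPM in the controls, and hepatocyte markers summed to 809.4 to 2403 TPM, against 2524 to 5083 TPM. Their part in the Apoc1 result was not tested.

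The LY411575 effect minus the antibody effect called 3 of 8 members lower (background 5.38%). It was -2.15 ± 0.14 for Apoe (adjusted p = 4.7e-06), -2.38 ± 0.11 for Pltp (adjusted p = 3.4e-07) and -1.10 ± 0.13 for Abca1 (adjusted p = 0.00031), the last at -0.96 without antibody control replicate 2. The LY411575 libraries are from female and the antibody libraries from male mice, per the file headers. Their controls differed as well, with 3919 and 3544 TPM of Apoe beside LY411575 and 6276 and 6458 TPM beside the antibodies. Alb had 213.8 and 227.6 TPM in the former controls and 2491 and 1055 TPM in the latter. Sex, experiment and treatment thus cannot be told apart in this difference.

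Across all 47 groups the members spanned different ranges, with tables handled separately. Mean Abca1 ran from 393.5 TPM (C57BL/6J BMDMs with DLL4, TGF-beta and DMHCA, 72 h) to 3.85 TPM (untreated C57BL/6J BMDMs, 24 h), a span of 102-fold. Pltp ran from 2164 TPM in repopulating macrophages at 168 h to 11 TPM in bone marrow monocytes with DLL4 and TGF-beta, 196-fold, and Mylip from 473.9 to 14.4 TPM, 32.9-fold. Rnf145 spanned 7.99-fold and Lpcat3 3.17-fold, the narrowest. Apoc1 was at 1858 TPM in Kupffer cells and at 0 in untreated C57BL/6J BMDMs at 24 h, and no cultured group passed 12 TPM. Apoe and Apoc1 are listed by another isoform in some tables, of 1187 or 426 bases instead of 1267 or 549 bases, so their levels compare less well between tables.

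Over all libraries, centred within each table, the 28 pairs of members had Pearson correlations of log2(TPM + 1) from 0.14 (Apoc1 and Lpcat3) to 0.83 (Abca1 and Abcg1), with a median of 0.63. The points share tables, controls and treatments, so the values are descriptions. Among 8037 genes the closest to Apoe was Mertk (0.89), to Abca1 Tmem86a (0.80), to Mylip Tmem86a (0.88), to Abcg1 Gngt2 (0.69), to Pltp Ctsa (0.83), to Apoc1 Engase (0.85), to Lpcat3 Scd2 (0.79) and to Rnf145 Kctd2 (0.78).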

How the data were processed

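The authors deposited 8 tables of TPM, transcript levels scaled to length and library, made from reads mapped with STAR to mm10 and counted with HOMER, per the submitters' processing notes and the file headers. For either tool the version is not given in the sources used here. RNA was poly(A)-selected and libraries were stranded, per the labels' protocols. TPM are relative, so a few abundant RNAs such as Apoe lower all others. Each library's TPM summed to 510684 to 574479, and at least 99.9% of low values (up to 20 reads) came out as whole reads within 0.1 of a read.

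Each table was fitted by limma 3.58.1 under R 4.3.3 on log2(TPM + 1), with a mean per group, trended moderated variances and genes of at least 4 TPM in at least 2 libraries. The 48 comparisons and 8 interactions were called at a Benjamini-Hochberg adjusted p below 0.05 over all genes tested and at least 2-fold. Alternatives were leaving out each library, limma-voom on the recovered reads, a replicate block, quantile normalization, a pseudocount of 0.25 and no filter. A group left with 1 library is assumed to vary like the others. The method was tested on simulated data. Values are printed to 4 significant digits at most. Figures used matplotlib 3.10.9, pandas 2.3.3 and numpy 2.4.6 under Python 3.11.15.

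Members and lists were chosen with earlier results of these data known. Genes outside the 8 members were named as the receptors and deleted genes, as the list members with the largest called differences, and as the gene with the highest correlation to each member. Of 69 replicate pairs 0 were identical. No column lacked a sample. Labels disagree in places: 72 h BMDMs carry a 24 h DLL4 label, and the control libraries at 24 h with LY411575 or antibodies are labelled as treated. Titles were followed in both cases. The macrophages of those 24 h experiments are labelled C57BL/6J where the design names Clec4f-Cre/DTR mice, and the columns of bone marrow monocytes are headed BMDM.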

Additional observations from a re-analysis of the deposited data

Results flagged for a closer look

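Among the 4 libraries with antibodies to DLL1 and DLL4, 1 stood apart from the other 3 in Apoc1, at 104.8 TPM against 49.4 to 57.1 TPM, and it also had the most Alb, at 1028 TPM against 287.2 to 658.5 TPM. In the same group another library stood apart in Lpcat3, at 60.84 TPM against 54.5 to 54.8 TPM. Groups of 4 were examined for the 8 members in 16 tests with 2 such results, and chance gives about 1 in 20 groups.

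Of 57 tests of a difference between responses, 9 passed. A further 3, all of Apoc1, were left out because every library of one of the responses was under 4 TPM. The difference of knockout-labelled TIM4-positive from control Kupffer cells, minus that of Nr1h3 knockout from wild-type BMDMs, was -1.69 for Apoe and -1.28 for Pltp. Nr1h3 TPM did not show the deletion in those Kupffer cells, and it did in the BMDMs. Cell type, kind of deletion, kind of control and culture cannot be told apart there. The TGF-beta effect in Smad4 knockout minus control BMDMs was -1.31 for Abca1. The DMHCA effect on DLL4 plus TGF-beta minus that of DMHCA alone at 24 h was -1.23 for Abca1, -1.25 for Abcg1 and 1.6 for Apoe. The LY411575 effect minus the antibody effect was -1.1 for Abca1, -2.15 for Apoe and -2.38 for Pltp, in libraries that differ in sex and experiment as well.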

How the results depend on the processing

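No member result reversed under any alternative. Counts of member results and calls in this section include Apoc1 also in the BMDM comparisons where it is given no call above. Over the member results, leaving out 1 library kept 2176 on their side of the threshold, moved 13 past it and 47 off it. Quantile normalization did so for 416, 4 and 9, the count model on recovered reads for 425, 1 and 3, no expression filter for 426, 0 and 3, and a pseudocount of 0.25 for 429, 0 and 0. Quantile normalization shifted the median of all genes by over 0.1 in 8 comparisons or interactions, at most by 0.18 (72 against 24 h, untreated BMDMs).

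Under the alternatives 81 calls of single members changed, in 27 of the 56 comparisons and interactions, and the cause was not tested. Those at which a statement turns are given beside the results. The count of called members moved by over 1.5 times in 5 of the 19 main comparisons. In Nr1h3 knockout-labelled TIM4-positive Kupffer cells 2 became 1 with quantile normalization and 1 to 2 without 1 library. In Nr1h3 knockout BMDMs 1 became 0 without the filter, 0 with quantile normalization and 0 without any 1 of the 4 libraries. Under TGF-beta in control BMDMs 2 became 1 with quantile normalization and 1 to 3 without 1 library. In untreated Smad4 knockout BMDMs 2 became 1 to 2 without 1 library. With the antibodies 1 became 0 without the filter and 0 to 1 without 1 library.

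The replicate numbers were not taken as pairing: same-numbered libraries' deviations correlated at -0.26 to 0.34 over the 6 tables examined. The titles of the STAB2 sorts share 2 numbers (r 0.06 to 0.14), and what these mark is not stated. The Smad4 TIM4-positive and TIM4-negative libraries share 1 number, too few for a block. A replicate block left the 2 calls in TIM4-positive Nr1h3 knockout-labelled cells and the counts of the other comparisons as they were, and added 1 call, Apoc1 in the LY411575 minus antibody difference (1.47, against 1.23 without it).

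Counts over all genes moved by over 1.5 times in 10 comparisons or interactions. The DLL4 response between Smad4 genotypes had 0 in limma (843 at an unadjusted p below 0.05), 3 without the filter and 1 on recovered reads. Nr1h3 knockout BMDMs had 44 genes, 22 with quantile normalization and 87 on recovered reads. STAB2-intermediate against high cells had 1, 2 with a pseudocount of 0.25, 0 without the filter, 0 with quantile normalization, 27 with the block and 11 on recovered reads. TIM4-positive Smad4 knockout Kupffer cells had 96, 60 without the filter, TIM4-negative ones 75 higher and 86 lower, 83 in all without the filter, and the 2 classes differed in 5, 2 without the filter and 2 on recovered reads. On recovered reads TGF-beta in Smad4 knockout BMDMs had 90 in place of 56, the antibodies 367 in place of 205, desmosterol on DLL4 plus TGF-beta 41 in place of 21 and the desmosterol interaction 32 in place of 17, or 26 with a pseudocount of 0.25. Low values limit Apoc1 in cultured cells, where it is near 0.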

Other observations

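Mylip and Pltp had opposite orders in the cells sorted on STAB2. Mylip, the gene for a ubiquitin ligase that limits lipoprotein uptake, averaged 473.9 ± 2.69 TPM in STAB2-high cells (SD, n = 2), while its highest Kupffer cell group, the controls of the Nr1h3 experiment, averaged 83.7 ± 8.39 TPM (SD, n = 2) in another table. Pltp averaged 12.5 ± 1.37 TPM in STAB2-high cells (SD, n = 2) and 1635 ± 87.7 TPM in those Kupffer cells (SD, n = 2).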
